A study of Homo sapiens with 12 samples.

Results

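The LCE1 genes are the first group of the late cornified envelope family, and they lie side by side on chromosome 1. The table of raw counts was searched for the symbols LCE1A to LCE1F, and all 6 were found among its 55773 gene entries. They were chosen by their levels in these same data, several having been seen to be high with Nutlin and near 0 without it, so their Nutlin responses are described here without a test. Of the 6, 4 passed the filter on low counts (LCE1B, LCE1C, LCE1E and LCE1F), and they passed it through the Nutlin libraries alone. LCE1D was below that filter and LCE1A had no count in any library.

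The cells were RBE, an established human cholangiocarcinoma (bile duct cancer) line, labelled liver and bile duct. The series asks how 2-hydroxyglutarate, made by mutant IDH1, alters the genes that p53 directs. The vehicle group had 22 days of DMSO and no Nutlin. The vehicle_Nutlin group had the same 22 days and then 72 hours of 5 µM Nutlin, which blocks MDM2 and so activates p53. The AG120 group had 22 days of 5 µM AG-120 (ivosidenib, an inhibitor of mutant IDH1) and no Nutlin. The AG120_Nutlin group had both, in that order. Each group held 3 libraries of poly(A) RNA. The labels do not say whether these came from separate cultures, so p-values measure the spread between these samples, which may be technical.

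Late cornified envelope proteins are small, and in skin they are cross-linked into the cornified envelope that replaces the plasma membrane of the outermost keratinocytes. Their genes belong to the epidermal differentiation complex, with those for filaggrin, involucrin, loricrin, the small proline-rich (SPRR) proteins and the S100 proteins. LCE1 genes have been described as targets of p53, and LCE1 proteins as regulators of the arginine methyltransferase PRMT5.

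In hg19, the build of the deposited table, the LCE1 cluster ran over 51.7 kb of chromosome 1, from 152748848 to 152800573. In order along the chromosome, LCE1F spanned 152748848 to 152749445, LCE1E 152758690 to 152760902, LCE1D 152769227 to 152770657, LCE1C 152777311 to 152779107, LCE1B 152784447 to 152785585 and LCE1A 152799949 to 152800573. Exons were counted in 1 GENCODE release 29 transcript per gene, the one with the longest coding sequence. It has 2 exons for LCE1D and LCE1E and 1 for the others, though other transcripts of a gene can differ. LCE1C alone is read from the minus strand. The coding sequences run from 330 bases in LCE1A to 354 in LCE1B, LCE1C, LCE1E and LCE1F.

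The 6 coding sequences are close copies, which bears on how reads can be given to each gene. Over the 15 pairs, identity ran from 85.9% to 96.0% with a median of 89.5%, and the closest pair was LCE1B with LCE1C. The first 60 coding bases are shown to make this visible, from GENCODE transcripts, with capitals where a gene departs from LCE1A. In all 6 genes 56 of the 60 bases were the same.
LCE1A: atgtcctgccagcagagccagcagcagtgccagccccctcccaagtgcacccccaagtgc
LCE1B: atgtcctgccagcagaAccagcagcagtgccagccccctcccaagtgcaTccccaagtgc
LCE1C: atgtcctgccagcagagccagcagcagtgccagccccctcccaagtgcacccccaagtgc
LCE1D: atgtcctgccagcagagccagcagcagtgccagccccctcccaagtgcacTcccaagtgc
LCE1E: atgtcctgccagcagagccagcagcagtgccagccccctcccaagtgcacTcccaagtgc
LCE1F: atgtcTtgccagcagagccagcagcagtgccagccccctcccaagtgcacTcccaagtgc
LCE1A and LCE1C were identical over this stretch. No window of 150 bases, the length of a read, in any LCE1 transcript had an exact copy in another LCE gene. For windows of 50 bases the share with such a copy ran from 5.19% in LCE1F to 22.6% in LCE1C. How reads that fit several genes were counted is not given in the sources used here, so the split of reads between members is uncertain. The sum over the 6 genes does not depend on that split, though it would on reads that were discarded.

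In the 6 libraries without Nutlin the LCE1 genes were all but undetected. Over these 6 libraries the 6 genes gave 2 counts in all, 1 for LCE1B and 1 for LCE1E, both in vehicle replicate 2. In the 6 Nutlin libraries they gave 9383 counts in vehicle cells and 8577 in AG-120 cells. The summed LCE1 level was 163, 161 and 154 CPM (counts per 1e6 counts, scaled by trimmed mean of M values) in vehicle_Nutlin replicates 1 to 3, or 159 ± 4.97 (SD, n = 3). It was 169, 160 and 148 CPM in AG120_Nutlin, or 159 ± 10.2 (SD, n = 3). The Nutlin libraries of both pretreatments lay in the same range, and no library without Nutlin came near it.

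**Figure D1:**
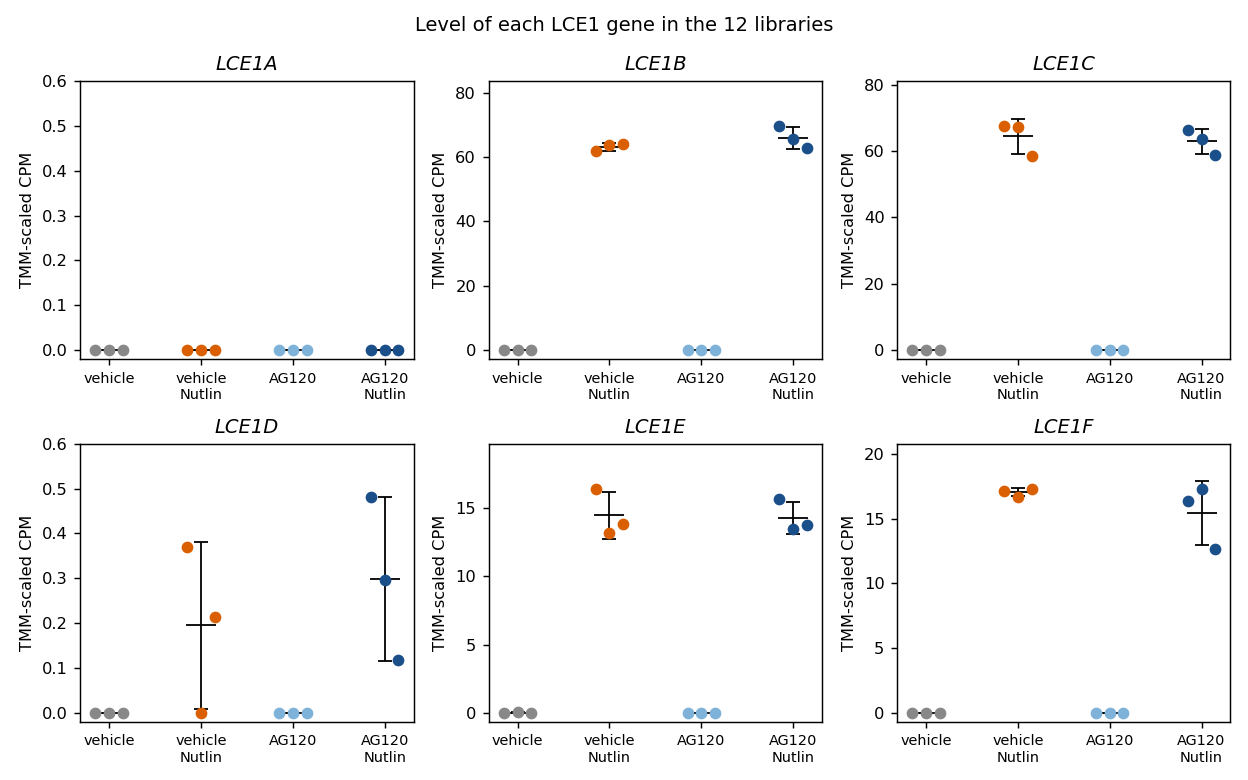
Level of each LCE1 gene in every library, in CPM after TMM scaling on a linear axis, with points for the 3 libraries of each group and bars for mean ± SD. LCE1B and LCE1C stood between 58.4 and 69.7 CPM in all 6 Nutlin libraries, LCE1E and LCE1F between 12.6 and 17.3, LCE1D at or below 0.482 (its axis ends far lower), and LCE1A at 0.

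LCE1B had 1170, 1066 and 1499 counts in vehicle_Nutlin and 1158, 1332 and 1072 in AG120_Nutlin. Its level was 61.9, 63.8 and 64.0 CPM in vehicle_Nutlin and 69.7, 65.6 and 63.0 CPM in AG120_Nutlin. The ranges of the pretreatments overlapped, and the 3 vehicle_Nutlin libraries lay closer together than the 3 of AG120_Nutlin. Against the single count in vehicle, LCE1B was 4226-fold higher in vehicle_Nutlin, with a counting interval of 758 to 166950 (exact, 95%) that shows how little 1 count fixes such a ratio. Against 0 counts in AG120 it was at least 1381-fold higher in AG120_Nutlin, taking a floor of 3 counts over the group, as for each lower bound below.

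LCE1C had no count in the 6 libraries without Nutlin. It had 1278, 1125 and 1368 counts in vehicle_Nutlin and 1100, 1294 and 999 in AG120_Nutlin. In CPM this was 67.6, 67.4 and 58.4 in vehicle_Nutlin and 66.3, 63.7 and 58.7 in AG120_Nutlin. Replicate 3 was the lowest of both groups, and the groups overlapped. LCE1C was at least 1422-fold higher with Nutlin in vehicle cells and at least 1316-fold higher in AG-120 cells.

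LCE1F, at the other end of the cluster, likewise had no count without Nutlin. Its level was 17.1, 16.7 and 17.3 CPM in vehicle_Nutlin (1009 counts in all). In AG120_Nutlin it was 16.4, 17.3 and 12.6 CPM (839 counts). The value of AG120_Nutlin replicate 3 was the only one of the 6 below 16 CPM. LCE1F was at least 380.5-fold higher with Nutlin in vehicle cells and at least 325-fold higher in AG-120 cells.

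LCE1E stood at 16.5, 13.2 and 13.9 CPM in vehicle_Nutlin, from 311, 220 and 325 counts. It stood at 15.7, 13.4 and 13.7 CPM in AG120_Nutlin, from 260, 273 and 234 counts. In both groups replicate 1 was the highest and the other libraries lay close together. Against the single vehicle count the ratio was 968, with a counting interval of 173 to 38295, and against 0 counts in AG120 it was at least 297-fold.

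LCE1D lies between LCE1E and LCE1C and had far fewer counts than either. It had 7, 0 and 5 counts in vehicle_Nutlin, 8, 6 and 2 in AG120_Nutlin, and none in the other 6 libraries. Pooled over 3 libraries this was 0.203 CPM (exact Poisson 95% interval 0.105 to 0.355) and 0.297 CPM (0.170 to 0.482). One Nutlin library had no LCE1D count, so this group overlapped with its control. The bounds on its ratio were at least 4.53-fold in vehicle cells and at least 6.20-fold in AG-120 cells. Intervals and floors of this kind cover counting error only.

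LCE1A, the last gene of the cluster, had 0 counts in all 12 libraries. With 3 libraries pooled, the upper limit of its level (exact Poisson, 95%) was between 0.0552 and 0.0684 CPM in each of the 4 groups. No response of LCE1A was detectable at this depth. Its neighbour LCE1B held at least 61.9 CPM in each Nutlin library.

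Background shares put these contrasts in proportion. Of the 15691 genes tested, 26.8% were called higher with Nutlin in vehicle cells and 27% in AG-120 cells by edgeR's quasi-likelihood test at a Benjamini-Hochberg adjusted p of at most 0.05. Groups that did not overlap, with Nutlin higher, made up 28.4% of tested genes in vehicle cells and 35.1% in AG-120 cells. LCE1B, LCE1C, LCE1E and LCE1F did not overlap in either contrast, but they were chosen for it and nothing is read from that count. Just inside the filter on low counts the lowest member was LCE1E, at 14.3 CPM in AG120_Nutlin, and just outside it was LCE1D, at 0.298 CPM.

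The LCE1 genes had almost no counts before Nutlin, a trait shared with some other genes that were high with it, and this too is a description. No count in any of the 6 libraries without Nutlin was found for 28792 entries of the table. Of those, 2622 had counts with Nutlin, and 4 reached a mean of 10 CPM over the 6 Nutlin libraries. LCE1C led these 4 with 63.7 CPM, ahead of HHATL with 31.0 and UNC45B with 18.7 CPM, and LCE1F was the fourth with 16.3 CPM. When up to 3 counts without Nutlin were allowed, 10 of 33628 entries reached 10 CPM. CLCA2, a known p53 target that encodes a chloride channel accessory protein, led these with 577 CPM, and LCE1B, LCE1C, LCE1F and LCE1E ranked 2, 3, 8 and 9.

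The members kept nearly the same proportions in every Nutlin library. LCE1B made up 37.9% to 42.5% of the LCE1 counts (median 41.1%, 6 libraries) and LCE1C 38.0% to 41.8% (median 39.7%). LCE1F made up 8.53% to 11.3%, LCE1E 8.18% to 10.1%, and LCE1D at most 0.286%. LCE1B and LCE1C overlapped in share, as did LCE1E and LCE1F, while the first pair lay well above the second in each library.

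**Figure D2:**
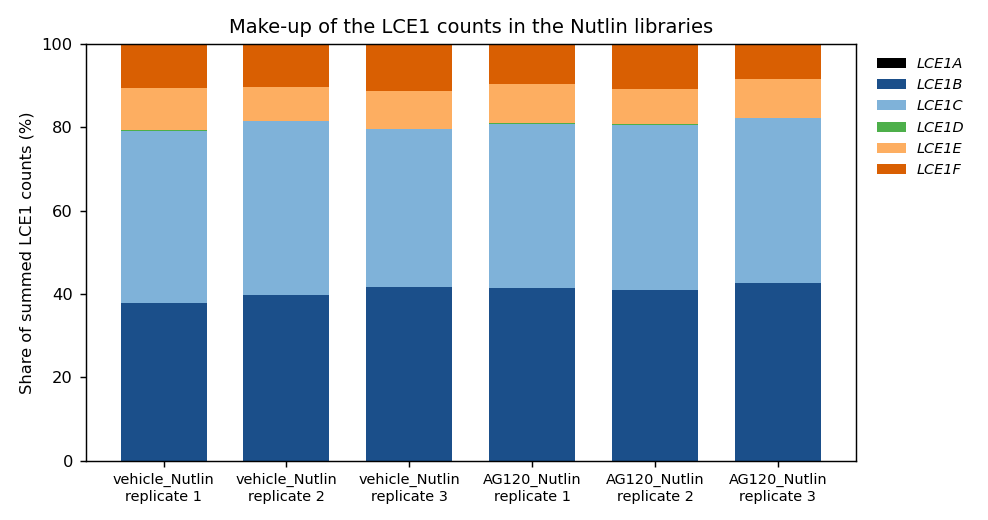
Share of each LCE1 gene in the summed LCE1 counts of the 6 Nutlin libraries, in percent, stacked to 100. LCE1B (37.9% to 42.5%) and LCE1C (38.0% to 41.8%) fill most of every bar, and LCE1D and LCE1A are too thin to see.

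Transcript length changes the order at the top. Per kilobase of GENCODE exon, LCE1C led with 84.4 to 97.7 CPM per kb over the 6 Nutlin libraries, followed by LCE1B with 54.3 to 61.2, LCE1F with 35.4 to 48.6 and LCE1E with 10.1 to 12.7. LCE1D followed with at most 1.12 CPM per kb. No neighbours in that order overlapped. Per kilobase of the span in the deposited table, introns included, LCE1B led with 54.3 to 61.2 and LCE1C came next with 32.5 to 37.6 CPM per kb. The remaining order was the same on both lengths (LCE1F, LCE1E, LCE1D), again without overlap between neighbours, and the order of LCE1B and LCE1C thus rests on the length used.

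Spread between libraries was near counting error for some members and above it for others. The coefficient of variation of LCE1B was 1.87% in vehicle_Nutlin, where its counts alone would give 2.83%, and 5.16% in AG120_Nutlin, where they would give 2.90%. LCE1F went from 1.91% in vehicle_Nutlin to 16.1% in AG120_Nutlin, against 5.45% and 5.98% from counting. LCE1C varied by 8.10% and 6.12% and LCE1E by 11.9% and 8.40%, all above their counting error. Each of these rests on 3 libraries.

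AG-120 with Nutlin was compared with vehicle with Nutlin by edgeR's quasi-likelihood test on all genes, a contrast not used to pick the members. None of the 4 LCE1 genes tested was called, also none at an unadjusted p under 0.05 and none by DESeq2. The background for this contrast is low: 2.36% of all genes tested were called in either direction, and 0.381% to 6.44% when single libraries were left out. LCE1B differed by 0.06 on the log2 scale (SE 0.12, adjusted p = 0.792), a ratio of 1.05 with a 95% interval of 0.865 to 1.26. LCE1C differed by -0.03 (SE 0.11, adjusted p = 0.878), with a ratio interval of 0.822 to 1.16. For LCE1E the difference was -0.02 (SE 0.18, adjusted p = 0.956), with an interval of 0.748 to 1.30. For LCE1F it was -0.14 (SE 0.16, adjusted p = 0.632), with an interval of 0.705 to 1.16. A difference between pretreatments was thus not detected, and the widest intervals, those of LCE1E and LCE1F, still hold ratios from 0.705 to 1.30. LCE1D was tested only when no filter was set, with a log2 difference of 0.56 and an interval of -1.66 to 2.78 (adjusted p = 0.913).

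**Figure D3:**
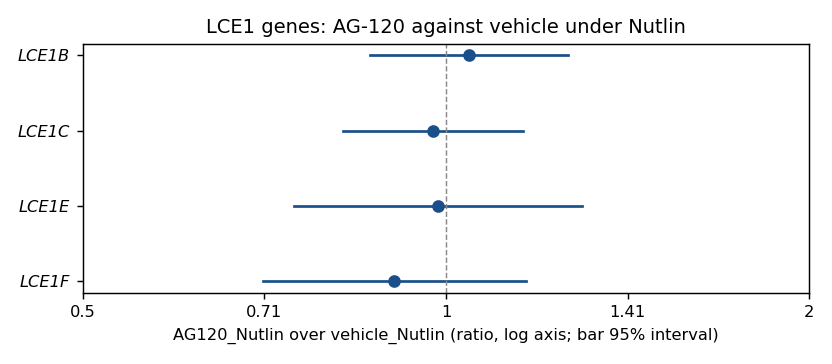
Ratio of AG120_Nutlin to vehicle_Nutlin for the 4 tested LCE1 genes, on a log axis, with 95% intervals from the edgeR fit as bars. All 4 bars cross 1, from LCE1B at 1.05 to LCE1F at 0.906.

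The difference between the Nutlin responses of AG-120 and vehicle cells was the interaction term of the same model. For the LCE1 genes this test is void. LCE1C and LCE1F had 0 counts in all 6 libraries without Nutlin, and LCE1B and LCE1E had 1 each, so the term has no baseline to be estimated from and its values are not given. Whether the LCE1 responses to Nutlin differ between pretreatments as folds could not be tested, and the comparison of levels under Nutlin above is the one the counts allow. AG-120 without Nutlin could not be compared for any member, since both groups were at or below the floor of 3 counts.

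Some libraries stood apart from their groups over all genes. In vehicle_Nutlin replicates 1 to 3, 7.58%, 11.8% and 15.01% of genes lay more than 2-fold from the other libraries of the group, in AG120 replicate 1 it was 4.64%, and in the other 8 it was 1.77% to 3.10%. Deviations from the group mean also followed transcript length (Spearman across genes) from -0.331 to 0.317 in vehicle_Nutlin and from -0.369 to 0.385 in AG120, but only from -0.0797 to 0.0952 in the remaining groups. The part of this in the LCE1 values was not tested beyond leaving libraries out. The 3 libraries that stood apart, as named below, are vehicle_Nutlin replicates 2 and 3 and AG120 replicate 1. Replicate 1 of vehicle_Nutlin was kept, though its 7.58% exceeds the 4.64% of AG120 replicate 1, so outlying libraries were not all removed. Without those 3, the summed LCE1 level was 164 CPM in vehicle_Nutlin, from 1 library, and 160 CPM in AG120_Nutlin. In that fit, which assumes that the lone library varies like the other groups, the log2 differences were 0.11 for LCE1B, -0.09 for LCE1C, -0.19 for LCE1E and -0.14 for LCE1F, with adjusted p from 0.607 to 0.750.

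Sequence upstream of the members was compared because members of the cluster went together from near 0 to detected with Nutlin. RefSeq promoter windows (GRCh38.p14, 250 bases before to 50 after the start) were at hand for 5 of the 6, all but LCE1B. That of LCE1A begins at its first coding base and was not compared. For LCE1C, LCE1D, LCE1E and LCE1F the RefSeq start lies 1043 to 1232 bases before the first coding base, and the counts do not show which start the cells used. The stretch from -250 to -51 of each is shown because one run of 18 bases, in capitals, was common to all 4.
LCE1C: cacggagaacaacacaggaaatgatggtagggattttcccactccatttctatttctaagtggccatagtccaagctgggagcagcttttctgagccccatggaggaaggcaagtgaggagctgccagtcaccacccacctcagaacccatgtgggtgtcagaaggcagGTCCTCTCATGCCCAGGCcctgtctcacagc
LCE1D: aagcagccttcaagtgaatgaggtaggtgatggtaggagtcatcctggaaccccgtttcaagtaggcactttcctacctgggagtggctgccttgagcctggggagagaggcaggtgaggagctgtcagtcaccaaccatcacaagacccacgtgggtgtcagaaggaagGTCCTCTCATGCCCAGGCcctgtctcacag
LCE1E: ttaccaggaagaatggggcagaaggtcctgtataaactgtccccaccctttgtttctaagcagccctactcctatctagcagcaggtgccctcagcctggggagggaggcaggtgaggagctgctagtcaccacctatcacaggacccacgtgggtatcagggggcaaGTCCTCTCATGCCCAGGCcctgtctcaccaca
LCE1F: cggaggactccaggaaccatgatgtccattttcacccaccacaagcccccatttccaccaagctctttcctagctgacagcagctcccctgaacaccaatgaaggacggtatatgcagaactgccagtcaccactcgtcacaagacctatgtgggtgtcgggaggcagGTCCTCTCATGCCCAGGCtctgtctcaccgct
In GRCh38.p14 these are chr1:152806702-152806901 on the minus strand for LCE1C and, on the plus strand, chr1:152796471-152796670 for LCE1D, chr1:152786007-152786206 for LCE1E and chr1:152774890-152775089 for LCE1F. Of 35116 promoter windows in the table, these 4 alone held the 18-base run. Upstream identity among the 4 was 67.4% to 74.4% (median 72.9%, 6 pairs), against 40.5% to 52.5% (median 48.3%, 52 pairs) between them and other LCE promoters. Those other windows were not screened for a start at the first coding base, for which LCE1A was left out, so the ranges may compare unlike sequence.

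Motifs were searched on both strands of the 300-base windows. The consensus decamer of p53 binding sites was in the LCE1E window alone of the 4, starting at -88, and in 6.63% of all promoters. The best 20-base match to adjacent p53 decamers without a gap lay at the same place in all 4, beginning 6 bases before the shared run and overlapping it. The 4 matches are printed with departures from the consensus in capitals.
LCE1C: aggcaGgtccTCTcatgccc
LCE1D: aggAaGgtccTCTcatgccc
LCE1E: gggcaagtccTCTcatgccc
LCE1F: aggcaGgtccTCTcatgccc
The departures numbered 3 in LCE1E, 4 in LCE1C and LCE1F, and 5 in LCE1D. A match with as few or fewer was in 5.20%, 26.0% and 70.5% of all promoters for 3, 4 and 5 departures, so only that of LCE1E is uncommon. The TATA-type motif ATAAAA was at -28 in all 4 and in 15.99% of promoters. TATAAA was in LCE1E only (-220, 11.5% of promoters), CACGTG in LCE1D at -101 and LCE1E at -103 (7.26%), and the AP-1 motif TGANTCA in none of the 4 (7.71%). CACGTG and ATAAAA overlap neither each other nor the p53 match. These matches are letters in a window, not sites shown to be bound. LCE1D, with at most 8 counts, held the shared run and ATAAAA as the other 3 did.

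Around the LCE1 cluster the complex mostly had no counts. KPRP, a keratinocyte proline-rich protein gene 14.3 kb before LCE1F, and LCE6A, 14.8 kb after LCE1A, had 0 counts in all 12 libraries. The nearest coding genes with any count were C1orf68, a skin-specific gene 55.9 kb before with 0 counts without and 39 with Nutlin, and SPRR3, 174 kb after with 3 and 1. Over 1.65 Mb, 35 of the 56 other coding genes had 0 counts in all libraries, and none besides LCE1 genes had no count before Nutlin and at least 10 CPM after it.

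**Figure D4:**
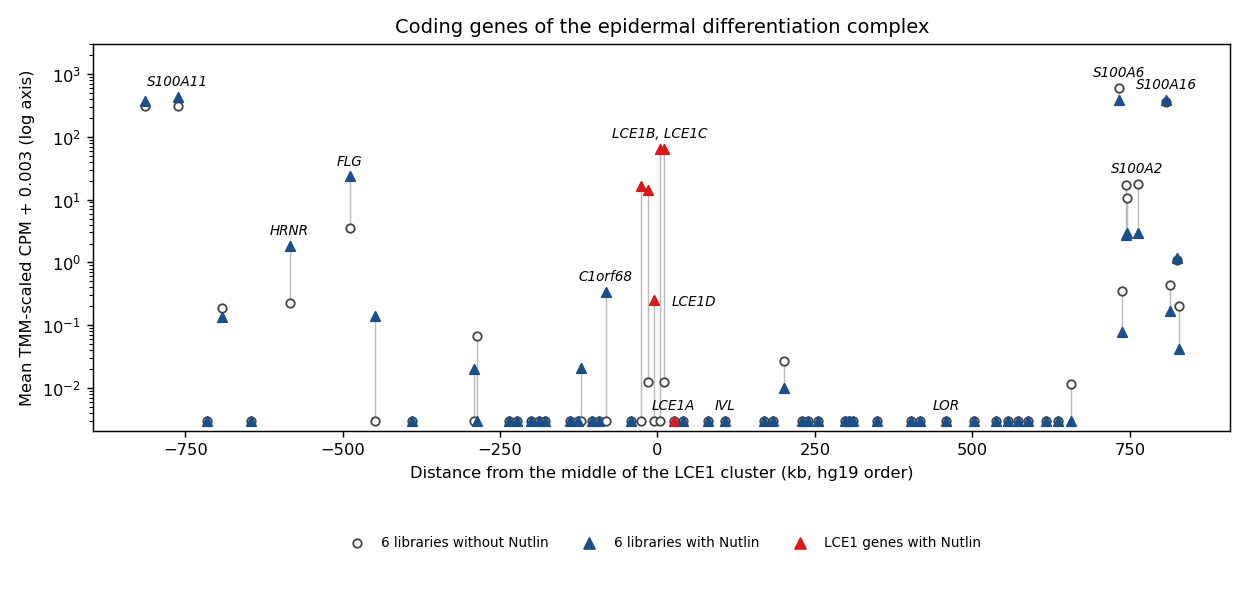
Mean level of each coding gene of the epidermal differentiation complex, in CPM on a log axis (0.003 added so that genes at 0 appear), against distance in kb from the middle of the LCE1 cluster. Circles are the 6 libraries without Nutlin and triangles the 6 with Nutlin. The red triangles of LCE1B, LCE1C, LCE1E and LCE1F stand far above their circles amid genes at 0. That of LCE1D lies much lower, at 0.246 CPM, and that of LCE1A is at 0 with its circle. The nearest coding gene that passed the filter (FLG) lies 451 kb before the cluster.

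Other late cornified envelope genes were at or near 0 with and without Nutlin, as LCE1A was. Of the 12 outside the LCE1 group, 10 had 0 counts in all 12 libraries, and LCE2B and LCE5A had 2 counts each. None passed the filter. Of the 11 SPRR genes, 10 were at 0 throughout and none passed. Involucrin (IVL) and loricrin (LOR), main envelope proteins of skin, had 0 counts.

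The wider complex gave calls in both directions. Of its 57 listed genes besides LCE1 (the other LCE, SPRR and S100 genes included), 36 were at 0 throughout and 10 were tested, and 3 rose and 4 fell with Nutlin in vehicle cells, with a median log2 change of 0.09 against -0.02 over all genes. In AG-120 cells 3 also rose and 4 fell, with a median of 0.08 against 0.00. The shares of all genes called were given above for genes that rose, and 27.1% and 28.8% fell. FLG, which encodes filaggrin, was at 2.61 ± 0.86 CPM without and 24.3 ± 10.2 with Nutlin in vehicle cells, and at 4.45 ± 0.165 and 22.5 ± 0.727 in AG-120 cells (SD, n = 3). It rose by 3.20 and 2.34 on the log2 scale (edgeR adjusted p = 1.478e-06 and 1.543e-05), and an antisense gene, FLG-AS1, overlaps it in data whose strand is not stated. HRNR and S100A11, named after their values were seen, were the other genes that rose in both. The genes that fell in both were S100A2, S100A3, S100A4 and S100A6, all of the S100 group, where 8 of 17 were tested. S100A2 fell from 19.5 ± 2.36 to 3.56 ± 0.425 CPM in vehicle cells, and S100A6, by -0.50 on the log2 scale (adjusted p = 0.0397), was no longer called when any of 9 single libraries was left out.

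Cornification genes outside the complex were more often detected. Of 52 listed, 10 were at 0 throughout and 19 were tested. In vehicle cells 11 of these rose and 3 fell (median log2 0.37), and in AG-120 cells 9 rose and 4 fell (median 0.45). Over all genes tested 26.8% rose and 27.1% fell in vehicle cells, and 27% and 28.8% in AG-120 cells (medians -0.02 and 0.00). ABCA12, the lipid transporter of the skin barrier, went from 8.17 ± 0.314 to 236 ± 18.6 CPM in vehicle cells and from 17.6 ± 4.15 to 367 ± 12.8 in AG-120 cells. DSC3 (desmocollin) rose by 2.59 in both and CAPN1 (a calpain protease) by 1.38 and 1.18, while KRT80 (a keratin) fell by 1.74 and 2.92, each called by edgeR's test. KRT1, KRT14 and CASP14, of skin keratinocytes, had 0 counts as LCE1A did.

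**Figure D5:**
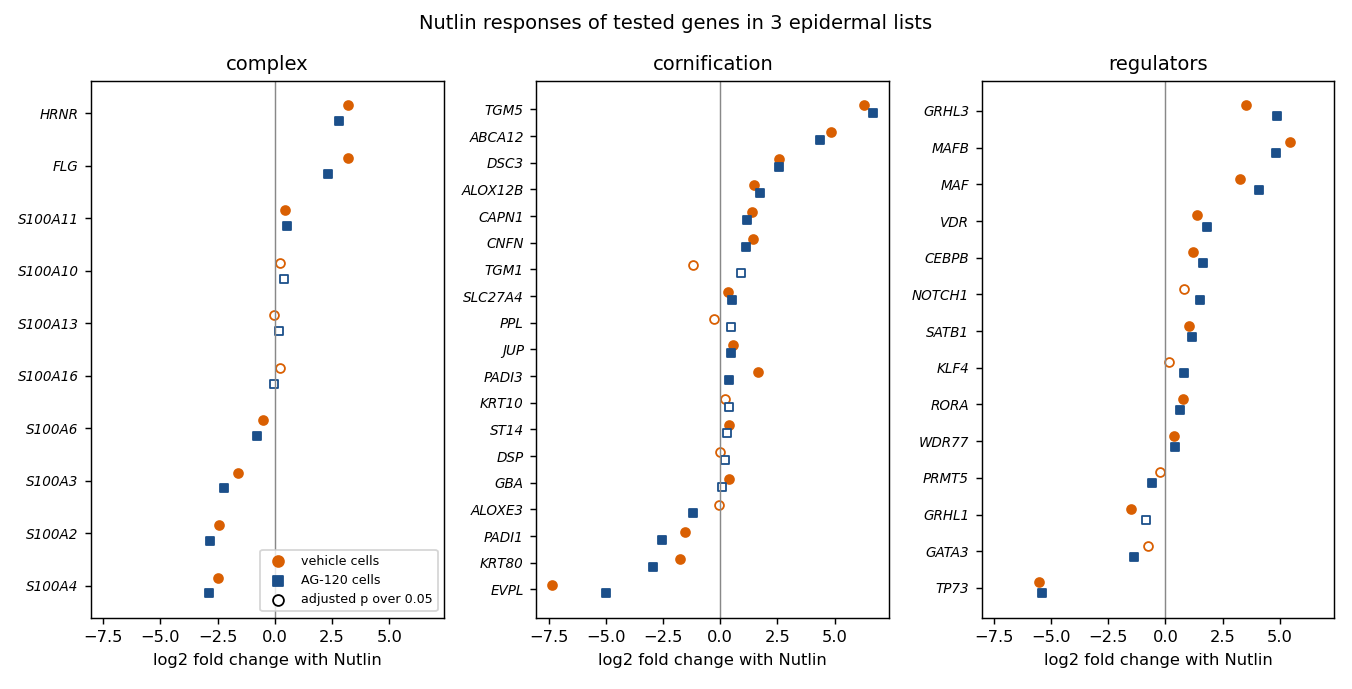
Log2 fold change with Nutlin of tested genes of 3 lists (complex, cornification, regulators), as circles for vehicle cells and squares for AG-120 cells, with open symbols for an adjusted p over 0.05 and 1 tested regulator not drawn. FLG and HRNR rose in the complex where S100A2 and S100A4 fell, ABCA12 rose and KRT80 fell among cornification genes, and GRHL3 rose and TP73 fell among regulators.

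Regulators of the epidermal programme and proteins described as working with LCE1 formed a list of 24, with 15 tested. In vehicle cells 8 rose and 3 fell (median log2 0.76), and in AG-120 cells 10 rose and 4 fell (median 0.83). Shares over all genes tested were 26.8% and 27.1% in vehicle cells, and 27% and 28.8% in AG-120 cells (medians -0.02 and 0.00). GRHL3, a factor of the skin barrier, went from 2.45 ± 0.149 to 28.3 ± 4.95 CPM in vehicle cells and from 1.33 ± 0.575 to 38.0 ± 1.40 in AG-120 cells. MAF rose by 3.28 and 4.09 and CEBPB by 1.21 and 1.65, all called. TP63, the master factor of keratinocytes, had 1 count in 12 libraries, and TP73 fell from 19.5 to 0.432 CPM in vehicle cells and from 17.4 to 0.406 in AG-120 cells. PRMT5, the methyltransferase linked to LCE1, fell by 0.60 in AG-120 cells (edgeR adjusted p = 0.00243). In vehicle cells its change of -0.26 was not called (adjusted p = 0.125), but without vehicle_Nutlin replicate 3 it was (-0.44, adjusted p = 0.00296).

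Markers of cell types were read beside these results, since LCE1 genes are known from keratinocytes. Of 9 suprabasal keratinocyte markers 4 were at 0 and 7 had at most 3 counts in any library. Their summed level went from 31.6–36.9 to 48.1–70.4 CPM with Nutlin in vehicle cells and from 15.8–43.4 to 53.7–61.8 in AG-120 cells, nearly all of it FLG and KRT10. Of 6 basal keratinocyte markers 1 was at 0 (KRT14) and 3 had at most 3 counts, and KRT5 had 10 counts over 12 libraries. COL17A1 rose by 3.50 and 4.64 on the log2 scale, each called. ITGB4 stood lower with Nutlin, by -0.60 in vehicle cells (edgeR adjusted p = 0.0658) and -0.42 in AG-120 cells (0.184), and was not called. Its level was 615, 618 and 256 CPM in vehicle_Nutlin replicates 1 to 3, so replicate 3 lay far below the others. In vehicle cells ITGB4 was called lower by DESeq2 (adjusted p = 0.0329), on library totals, with no filter and with the replicate block. It was also called without vehicle_Nutlin replicate 1 or 2 (-0.77 and -0.78), which gives replicate 3 more weight. Without the 3 libraries named above the change was -0.31, with 1 vehicle_Nutlin library left. In AG-120 cells ITGB4 was called with no filter, with only those groups fitted and without vehicle_Nutlin replicate 3. Without the same 3 libraries its change there was -0.25. Of 7 bile duct markers 6 were tested, and their sum was 3119 to 3266 CPM without and 3566 to 4499 with Nutlin in vehicle cells, and 3565 to 4380 and 2674 to 2758 in AG-120 cells. KRT7, EPCAM and MUC1 fell with Nutlin in both pretreatments. Fibroblast markers (5 listed, 2 tested, both of which fell) summed to 36.0 to 43.4 CPM without and 2.41 to 5.29 with Nutlin. Endothelial markers (3 in the table) summed to at most 1.06 CPM in any library, and leukocyte markers (4, of which 3 at 0) to at most 0.113. In bulk RNA a few cells with much of an LCE1 transcript and many with little cannot be told apart.

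The p53 response itself was present in every Nutlin library. Of 21 reference p53 targets 20 were tested, and all 20 rose in both pretreatments, with medians of 3.17 and 2.99 on the log2 scale. Over all genes tested 26.8% rose in vehicle cells and 27% in AG-120 cells (medians -0.02 and 0.00). The target not tested, SPATA18, had 2 counts in vehicle, 4 in AG120 and 0 in either Nutlin group. MDM2 went from 146 ± 6.98 to 2845 ± 694 CPM in vehicle cells and from 163 ± 26.5 to 3340 ± 16.1 in AG-120 cells. The spread of MDM2 in vehicle_Nutlin was wide where that of the summed LCE1 level, 159 ± 4.97 CPM, was narrow. Other targets in that group differed in spread, with BTG2 at 463 ± 13.7, TP53I3 at 855 ± 51.5, CDKN1A at 8438 ± 838 and CLCA2 at 542 ± 110 CPM. A narrow spread was thus not particular to LCE1.

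Likeness to the LCE1 pattern was ranked over the 12 libraries by Euclidean distance between centred log2 CPM profiles (prior count 2), which share the contrast used to choose the members. The 8 nearest genes to the summed LCE1 count were UBE2QL1 (distance 1.59), DRAXIN (3.13), CLCA2 (3.59), LCN15 (3.92), HHATL (3.97), HMCN2 (4.23), BLNK (4.90) and UNC45B (5.15). Their Pearson correlation with it ran from 0.986 to 0.998, as any gene near 0 without Nutlin and high with it would give. LCE1B and LCE1C lay at 2.16 and 2.22 from the sum that holds them, and LCE1F and LCE1E at 5.49 and 5.89. UBE2QL1 went from 0.63 ± 0.255 to 656 ± 44 CPM in vehicle cells and from 0.706 ± 0.361 to 809 ± 24.9 in AG-120 cells. It was detected before Nutlin, with 41 counts in vehicle and 45 in AG120, where LCE1 genes had 2 and 0.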

How the data were processed

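The deposited table holds raw counts per gene symbol for 12 libraries of poly(A) RNA read as pairs of 150 bases, per the labels. The submitters' processing notes name Partek, STAR, HTSeq, DESeq2 and hg19, without versions or roles, and the counting of reads that fit several genes is not given in the sources used here. Library totals ran from 16840161 to 27499433 (median 19221201). A total of 29603 entries had counts, and filterByExpr on the 4 groups kept 15691. One was subtracted from the deposited stops, which lie 1 past the end in 13 of 13 mitochondrial genes.

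Counts were fitted in R 4.3.3 with edgeR 4.0.16 (TMM scaling, glmQLFit over all 12 libraries with a term per group, glmQLFTest, Benjamini-Hochberg adjustment, called at 0.05), and the scripts were tested on simulated data. DESeq2 1.42.0 and other settings were alternatives. Transcript lengths and coding sequences came from GENCODE 29, promoters from RefSeq, and identities from Biopython 1.88. The LCE1 genes and the 13 gene lists were chosen with earlier results of these data known. Named genes are all members, the 4 with the smallest adjusted p in the Nutlin response of AG-120 cells in each list, landmarks (MDM2, CDKN1A, PRMT5 and TP63 among them), the 8 genes nearest the summed LCE1 profile, and the neighbours of the cluster. Others are named after their values were seen. The result of 1 gene that the rule names is not reported here.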

Additional observations from a re-analysis of the deposited data

Results flagged for a closer look

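The Nutlin responses of 3 genes named by the rule above differed between the pretreatments by edgeR's interaction test, and none of them is an LCE1 gene. KRT80, the keratin of the cornification list, responded by -1.19 more on the log2 scale in AG-120 cells (adjusted p = 0.00149). KRT7, a bile duct keratin, responded by -1.18 more (adjusted p = 0.00647). PDGFRB, from the fibroblast markers, responded by -1.23 more (adjusted p = 0.0306). PADI3, also of the cornification list but named after its values were seen, differed by -1.25 (edgeR adjusted p = 0.00924).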

How the results depend on the processing

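No LCE1 gene was called for AG-120 with Nutlin under any setting run (0 each, also 0 to 0 with single libraries left out and 0 with the replicate block). The interaction is void for LCE1 genes under every setting, and its 0 calls say nothing about them. The log2 difference for AG-120 with Nutlin ran over 20 alternatives from 0.02 to 0.11 for LCE1B, -0.10 to 0.01 for LCE1C, -0.19 to 0.08 for LCE1E and -0.23 to -0.02 for LCE1F, with no adjusted p under 0.584. With single libraries left out the summed LCE1 level ran from 158 to 162 CPM in vehicle_Nutlin and from 155 to 165 CPM in AG120_Nutlin, and on library totals it was 156 CPM in each. The 8 genes nearest the LCE1 pattern were also the 8 nearest with a prior count of 0.5.

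Counts in the wider complex in AG-120 cells moved from 3 to 6 genes higher with no filter, and from 4 to 7 lower without the 3 libraries that stood apart. The first tests more genes, and the cause of the second was not tested. Left-out libraries gave 3 to 4 higher and 4 to 6 lower there, and 2 to 4 and 3 to 5 in vehicle cells. Cornification genes ran from 8 to 10 higher and 4 to 4 lower in AG-120 cells, and from 8 to 12 and 3 to 4 in vehicle cells. Among 2211 values of named genes, 2122 kept direction and side of the threshold, 51 passed it, 37 no longer did and 1 reversed: COL1A1 for AG-120 with Nutlin, from 0.09 to -1.07 without the 3 libraries (cause not tested). ABCA12 for AG-120 with Nutlin (0.64, adjusted p = 0.0285) was among those lost.

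Over all genes AG-120 with Nutlin gave 68 higher and 303 lower, against 263 and 640 by DESeq2, 594 and 678 with no filter, 33 and 178 with the replicate block, and 0 and 15 when only those groups were fitted. The interaction gave 5 and 52, against 26 and 197, 80 and 203, and 2 and 30 with the block. It needs all groups, so it has no fit of fewer. With single libraries left out, AG-120 with Nutlin ran from 5 to 418 higher and from 56 to 619 lower, fewest without AG120_Nutlin replicate 2 and most without vehicle_Nutlin replicate 1. The interaction ran from 1 to 36 and from 22 to 207, fewest without vehicle replicate 3 and most without vehicle_Nutlin replicate 3. Without the 3 libraries that stood apart the counts were 629 and 745, and 185 and 452. No pairing by replicate number was seen: 18 same-numbered pairs correlated between -0.224 and 0.116, and 0 of 12 libraries correlated best with their own number. With 3 libraries per group, some far from their group, this cannot exclude a shared culture or day.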

Other observations

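Of 88 genes of the epidermal lists below the filter on low counts, 22 had at least 10 counts in all. By mean CPM 7 of these were higher with Nutlin in both pretreatments, 10 were lower in both and 5 were mixed, with no test. The examples below were chosen after their values were seen. SERPINB5 (maspin, an epithelial serpin) had 40 counts in vehicle_Nutlin and 14 in AG120_Nutlin, and 0 in the groups without Nutlin. FLG2, a filaggrin relative, had 5 and 11 and again 0 without Nutlin. C1orf68, the nearest coding gene with counts before the LCE1 cluster, had 22 and 17 and 0 without. ZNF750, a regulator of keratinocyte differentiation, had 16 and 29 against 2 in vehicle and 2 in AG120. PRDM1 had 23 and 20 against 2 and 2. In the other direction, SBSN (suprabasin) had 18 counts in vehicle and 9 in AG120 against 0 and 7 with Nutlin, OVOL2 11 and 10 against 0 and 4, S100A5 33 and 12 against 7 and 1, KRT16 32 and 20 against 18 and 8, ASPRV1 15 and 8 against 6 and 5, and SULT2B1 9 and 5 against 1 and 0. TGM5, a transglutaminase of the cornified envelope that passed the filter, rose from 2 counts to 169 in vehicle cells and from 1 to 122 in AG-120 cells (edgeR adjusted p = 1.386e-06 and 1.879e-06).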
